A study of Homo sapiens with 24 samples.

Results

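Keratins that mark the basal and the luminal cells of breast epithelium were followed across 3 breast cancer cell lines. The set was defined by name as 10 genes: KRT5, KRT6B, KRT14, KRT15, KRT17 and KRT81, with expression in basal, stratified or hair-forming epithelium, and KRT7, KRT8, KRT18 and KRT19, the keratins of simple and luminal epithelium. The array annotation used here named probe sets for 7 of the 10, with 11 probe sets among the 54675 on the array, and 10 of these 11 were bright enough to be tested. KRT6B, KRT17 and KRT81 were not analysed here. KRT7 had 4 probe sets and KRT19 had 2, and for these genes the probe set of highest mean signal stands for the gene in every count below.

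Keratins are intermediate filament proteins of epithelial cells. Each filament is built from pairs of a type I and a type II keratin, so KRT5 (type II) assembles with KRT14 or KRT15 (type I), and KRT8 (type II) with KRT18 or KRT19 (type I). In the mammary gland, basal and myoepithelial cells make KRT5 and KRT14, while luminal cells make KRT8, KRT18, KRT19 and KRT7, and breast tumours are commonly described by which of the pairs they carry.

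The samples were 24 Affymetrix arrays in 8 groups of 3, all from established human triple-negative breast cancer lines. In the inhibitor experiment, HS578T, SUM149PT and SUM159PT cells were cultured for 24 hours with AZD3965, an inhibitor of the monocarboxylate transporter MCT1, or with DMSO, and the labels give no dose. In the shRNA experiment, SUM149PT cells were infected with lentivirus carrying an MCT1 shRNA or a scramble shRNA, and both were selected with puromycin at 2 µg/ml for 5 days. HS578T cells grew in DMEM with serum, whereas SUM149PT and SUM159PT cells grew in F12 with serum, insulin, hydrocortisone and EGF. Line and medium therefore cannot be told apart in comparisons with HS578T. Knockdown itself was not checked here, because the annotation used names no probe set for the targeted gene.

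Values are MAS5 signals in arbitrary units, which the authors had scaled to a common trimmed mean of 500.1 on each array. Median signals ran from 49.2 to 67.4. Scramble array 3 stood apart: the ratio of the 3' to the 5' control probe set for actin, a measure of RNA integrity, was 53.8 on it and 1.20 to 2.14 on the other 23 arrays, and the same ratio for GAPDH was 2.35 against 0.798 to 0.948. Results of the shRNA experiment are therefore given with all arrays. For the keratins of the set and for the other named genes that passed the test, they are also given without that array. Nothing in the labels says that the 3 arrays of a group are separate cultures, and p-values then measure only the spread between these samples, which may be technical. As in any bulk sample, a change in the share of cells of a type and a change in RNA per cell cannot be told apart.

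Promoter sequences of 2 members, KRT5 and KRT8, were available from RefSeq (GRCh38.p14, minus strand). They are shown because they set a basal type II keratin beside a luminal one, and these genes lie in the same keratin cluster, on chromosome 12. The windows run from 250 bases before to 50 bases after the transcription start, at chr12:52520345-52520644 for KRT5 and chr12:52926420-52926719 for KRT8. Capitals mark matches to the motifs named after the sequences.
KRT5: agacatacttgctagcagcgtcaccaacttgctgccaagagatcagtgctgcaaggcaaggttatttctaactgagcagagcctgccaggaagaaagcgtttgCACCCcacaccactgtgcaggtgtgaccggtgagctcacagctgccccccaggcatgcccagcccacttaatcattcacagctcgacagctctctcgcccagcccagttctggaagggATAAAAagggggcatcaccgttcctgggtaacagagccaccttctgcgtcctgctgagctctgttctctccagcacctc
KRT8: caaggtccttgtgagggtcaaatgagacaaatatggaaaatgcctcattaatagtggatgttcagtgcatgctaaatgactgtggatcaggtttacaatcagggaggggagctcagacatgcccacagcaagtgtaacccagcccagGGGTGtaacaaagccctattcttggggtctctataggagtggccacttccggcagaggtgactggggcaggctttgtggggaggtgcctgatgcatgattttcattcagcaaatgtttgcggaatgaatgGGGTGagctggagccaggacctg
Motifs searched on both strands were TATAAA, its variant ATAAAA, which can overlap it, the GC box GGGCGG, the AP-1 site TGANTCA, the CACCC box bound by Krüppel-like factors, and the AP-2 site GCCNNNGGC. The set was widened after a first pass had matched little. The KRT5 window held ATAAAA starting at position -29 and CACCC at -147 relative to the start. The KRT8 window held CACCC on the reverse strand, read as GGGTG, at -103 and at 28. None of the other 4 motifs was found in either window. Among 35116 RefSeq promoter windows of this length, ATAAAA was present in 15.99%, CACCC in 59.9%, TATAAA in 11.5%, GGGCGG in 45.0%, TGANTCA in 7.71% and GCCNNNGGC in 23.2%. A match describes the letters only.

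With MCT1 shRNA in SUM149PT cells, the luminal keratins KRT19 and KRT8 and the basal keratin KRT15 were higher than with scramble shRNA, and no keratin of the set was called lower. KRT8 was called only with scramble array 3 in the fit. KRT19 and KRT15 were higher by 2.12-fold and 2.21-fold, and KRT8 was 1.56-fold. KRT5, KRT7, KRT14 and KRT18 did not pass the test. These were 3 of 7 genes called, where a call is a Benjamini-Hochberg adjusted p under 0.05 in limma fitted to log2(signal + 16) of all 32768 probe sets tested. Over all probe sets 10.5% were called in this comparison, 5.61% higher and 4.92% lower. The median difference of the 7 genes was 0.37 on the log2 scale, against 0.04 for all probe sets.

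KRT19, the type I keratin of luminal cells that has almost no tail domain, gave signals of 12857, 12612 and 13155 with MCT1 shRNA, against 6584, 6557 and 5151 with scramble. All MCT1 shRNA arrays lay far above all scramble arrays, at a mean of 12875 ± 272 against 6097 ± 820 (SD, n = 3 each). The log2 difference was 1.09 ± 0.10 (SE, adjusted p = 2.67e-07), and without scramble array 3 it was 0.97 ± 0.10 (adjusted p = 1.64e-06). The dim KRT19 probe set 228491_at, below the signal limit for testing, read 96.6, 81.2 and 66.2 with MCT1 shRNA, against 51.9, 54.1 and 23.1 with scramble. The groups did not overlap on it either, but it did not follow the bright probe set 201650_at across the lines. Under DMSO it averaged 10.5 in SUM149PT and 12.9 in HS578T, where 201650_at averaged 4278 and 1.48.

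KRT15, a type I keratin of basal cells and of stem-like cells in stratified epithelia, read 267.9, 290.8 and 277.1 with MCT1 shRNA, against 95.4, 157.0 and 107.3 with scramble. The 3 MCT1 shRNA arrays were close together and each was above every scramble array. The log2 difference was 1.14 ± 0.24 (SE, adjusted p = 0.00342), and 1.08 ± 0.28 (adjusted p = 0.0154) without scramble array 3. KRT15 and KRT19 are neighbours among the protein-coding genes of the type I cluster in RefSeq. KRT9, on the other side of KRT19 in that order, differed by 0.02 and was not called.

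KRT8, the type II keratin of simple epithelia, read 7990, 8927 and 8750 with MCT1 shRNA, against 6611, 7004 and 3562 with scramble. The groups did not overlap, but the lowest value was that of scramble array 3, the array with the high actin ratio. The log2 difference was 0.64 ± 0.17 (SE, adjusted p = 0.0184). Without that array it was 0.33 ± 0.12 with an adjusted p of 0.108, so the call for KRT8 rested on it, and the part of RNA integrity in the result was not tested. KRT18, the partner of KRT8 and its neighbour in the genome, read 16406, 18581 and 19366 with MCT1 shRNA, against 15700, 15714 and 15827 with scramble. Its difference of 0.20 ± 0.10 did not pass (adjusted p = 0.209, and 0.295 without scramble array 3). RefSeq lists 52 pseudogenes of KRT8, 68 of KRT18 and 5 of KRT19, and the probe sets of KRT8 and KRT18 are of the type that can cross-hybridise, so part of their signal may come from such copies.

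The basal pair KRT5 and KRT14 did not pass the test. KRT5 read 2611, 2818 and 2741 with MCT1 shRNA, against 1740, 1809 and 2941 with scramble. Scramble array 3 was the highest of the 6, and the other scramble arrays were the lowest. The log2 difference was 0.37 ± 0.31 (adjusted p = 0.522), and 0.61 ± 0.33 (adjusted p = 0.318) without scramble array 3. KRT14 read 107.2, 94.4 and 105.1 with MCT1 shRNA, against 112.3, 135.1 and 85.2 with scramble, and the groups overlapped. The difference was -0.08 ± 0.19, with a 95% interval of -0.48 to 0.31 (adjusted p = 0.843). Without scramble array 3 it was -0.24 ± 0.20 (adjusted p = 0.567).

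KRT7, a type II keratin of glandular and ductal epithelium, read 20685, 22522 and 23323 with MCT1 shRNA, against 20139, 20265 and 25058 with scramble on its brightest probe set. The groups overlapped, and the difference was 0.03 ± 0.11, with a 95% interval of -0.21 to 0.26 (adjusted p = 0.915). The other 3 KRT7 probe sets gave differences of 0.28, -0.13 and -0.33, and none was called. Without scramble array 3 the brightest gave 0.13 ± 0.12 (adjusted p = 0.582). The others gave -0.01, -0.31 and -0.15 in that fit, and again none was called.

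**Figure D1:**
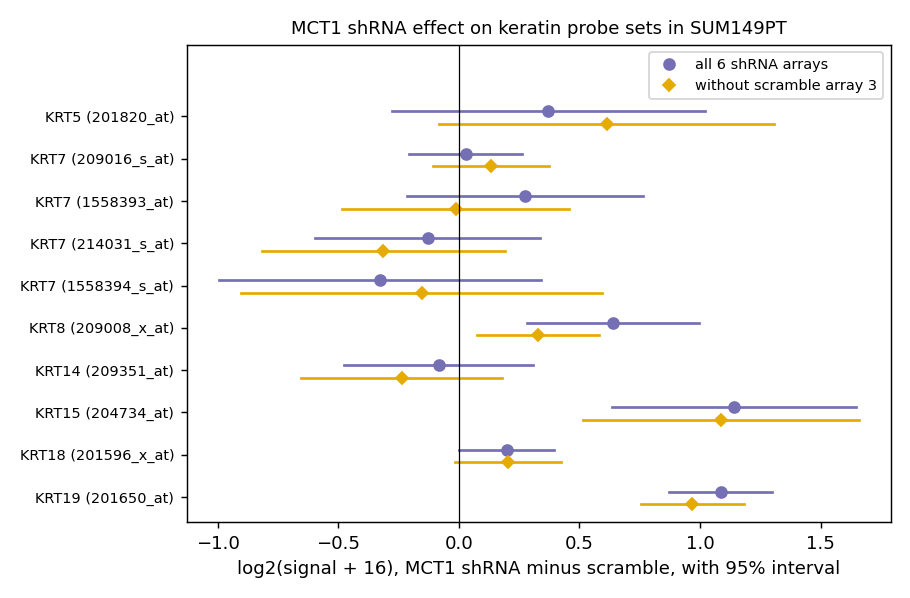
Difference in log2(signal + 16) between MCT1 shRNA and scramble shRNA in SUM149PT cells (x axis) for the 10 tested keratin probe sets (y axis), with all 6 shRNA arrays (circles) and without scramble array 3 (diamonds). Lines are 95% intervals from limma. KRT19 and KRT15 lay near 1 in both fits, and KRT8 lay at 0.33 without that array and 0.64 with it.

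Without scramble array 3, 2 of 7 keratin genes were called, KRT19 and KRT15, against 8.04% of all probe sets. Array medians were also 0.11 higher (log2) with MCT1 shRNA than with scramble. Centring every array on its median left KRT19 at 0.97 (adjusted p = 2.54e-05) and KRT15 at 1.03 (adjusted p = 0.0179), both called, and took KRT8 to 0.53 (adjusted p = 0.0863).

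Among other genes of the epithelial programme, AGR2, a luminal protein disulfide isomerase of the endoplasmic reticulum, moved most among the listed genes, at 3802 ± 192 with MCT1 shRNA against 276 ± 23 with scramble (SD, n = 3 each), a difference of 3.71 ± 0.16 (adjusted p = 9.13e-13). XBP1, a transcription factor of the unfolded protein response with a role in secretory cells, rose by 0.70 ± 0.10 (adjusted p = 8.19e-05). GATA3, the luminal lineage transcription factor, rose by 0.60 ± 0.12 (adjusted p = 0.00259). These were the 3 called of 16 luminal genes tested, from 22 listed. None of the 16 was called lower, and their median was 0.25. The share called over all probe sets was 10.5%, with 5.61% higher and 4.92% lower, and their median was 0.04. Without scramble array 3 the same 3 luminal genes were called, against 8.04% of all probe sets. AGR2 was then at 3.77 ± 0.18 (adjusted p = 5.46e-12), XBP1 at 0.59 ± 0.10 (0.000498) and GATA3 at 0.44 ± 0.11 (0.0170).

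Of 16 tested genes of desmosomes and hemidesmosomes, the junctions to which keratin filaments attach, 2 were called, both higher. They were PPL (periplakin), which links keratin filaments to the desmosome (1.09 ± 0.23, adjusted p = 0.00296), and PERP, a desmosomal membrane protein (0.27 ± 0.08, adjusted p = 0.0322). Without scramble array 3, PPL was called at 1.06 ± 0.26 (adjusted p = 0.0114). PERP was then just under the threshold at 0.28 ± 0.09 (adjusted p = 0.0493). DSP, the desmoplakin that anchors keratins, differed by 0.18 and was not called. None of 8 tested basal epithelial genes was called with all arrays. The share called over all probe sets was 10.5% with all arrays and 8.04% without scramble array 3. Without scramble array 3, LAMB3, a laminin chain of the basement membrane, was called at 0.53 ± 0.12 (adjusted p = 0.00951), and SLPI, a secreted protease inhibitor, at 0.67 ± 0.20 (adjusted p = 0.0346).

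Of 17 tested mesenchymal genes and other intermediate filament genes, 2 rose and 2 fell. The shares over all probe sets were 5.61% called higher and 4.92% called lower. SPARC, a matrix glycoprotein, rose by 1.22 ± 0.23 (adjusted p = 0.00142) at signals of 45.0 ± 5.8 against 11.5 ± 11.3, and COL6A1, a collagen VI chain, by 0.89 ± 0.12 (adjusted p = 2.42e-05). TAGLN, an actin-binding protein of smooth muscle and myoepithelial cells, fell by 1.60 ± 0.16 (adjusted p = 7.31e-07). SNAI2, a repressor of epithelial genes active in basal cells, fell by 0.41 ± 0.07 (adjusted p = 0.000376). Without scramble array 3 these genes were all called again. SPARC was then at 1.08 ± 0.25 (adjusted p = 0.00937) and COL6A1 at 0.89 ± 0.13 (9.66e-05). TAGLN was at -1.80 ± 0.16 (adjusted p = 9.22e-08) and SNAI2 at -0.43 ± 0.07 (0.000692). Of 11 tested keratins outside the set, of 37 with a named probe set, none was called, and of 7 tested genes of squamous differentiation none was called. Markers of leukocytes, endothelium and adipocytes had 3, 1 and 2 tested genes, none of them called.

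AZD3965 for 24 hours left no keratin of the set called in any line, nor in the average over lines. Few probe sets were called at all, 0.137% in HS578T, 0.0122% in SUM149PT, 0% in SUM159PT and 0.0183% in the average. At an unadjusted p under 0.05 there was 1 keratin gene of 7 in each line, KRT14 in HS578T, KRT18 in SUM149PT and KRT5 in SUM159PT, and 2 in the average, KRT14 and KRT18. Over all probe sets 6.79% reached that level in HS578T, 13.7% in SUM149PT, 5.75% in SUM159PT and 12.2% in the average. The median difference of the 7 genes was 0.04 in HS578T, 0.14 in SUM149PT and 0.18 in SUM159PT, against -0.04, 0.02 and -0.02 over all probe sets. None of the tested luminal, basal, junction, mesenchymal or squamous genes, and none of the 11 other keratins, was called with AZD3965. No keratin gene was called for a difference of the AZD3965 effect between lines, where 0.0519% of probe sets were called, and none had an unadjusted p under 0.05, against 7.87% of probe sets.

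KRT14 in HS578T read 2728, 2575 and 2404 with AZD3965, against 1913, 1806 and 1924 with DMSO. Every AZD3965 array was above every DMSO array, but the difference of 0.45 ± 0.19 did not pass the correction (adjusted p = 0.656). Array medians were 0.16 lower (log2) with AZD3965 in HS578T, and after median centring the KRT14 difference was 0.60 (adjusted p = 0.190). KRT14 averaged 262 ± 50 with AZD3965 and 234 ± 9 with DMSO in SUM149PT, a difference of 0.14 ± 0.19. In SUM159PT it was close to the offset in both, at 15.6 ± 3.7 and 9.49 ± 9.08. Its average over lines was 0.31 ± 0.11 (adjusted p = 0.296).

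KRT18 read 17028, 21060 and 21420 with AZD3965 in SUM149PT, against 15359, 17138 and 15192 with DMSO. AZD3965 array 1 lay within the DMSO range and the other AZD3965 arrays lay above it. The difference was 0.31 ± 0.10 (adjusted p = 0.202). Leaving out AZD3965 array 1 gave 0.42 with an adjusted p of 0.0270. That array alone also set the number of probe sets called in this line, which was 905 without it and 4 with it. With all arrays, the difference was 0.15 after quantile normalization (adjusted p = 0.381) and 0.25 after median centring (adjusted p = 0.494). The KRT18 difference was 0.04 ± 0.10 in HS578T and 0.18 ± 0.10 in SUM159PT, and 0.18 ± 0.06 in the average (adjusted p = 0.278).

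KRT5 in SUM159PT read 8.29, 9.49 and 3.67 with AZD3965, against 27.7, 13.5 and 36.4 with DMSO. The groups did not overlap, but most of these signals lie near the offset of 16 added before the log, and the difference of -0.82 ± 0.31 did not pass (adjusted p = 0.843). In SUM149PT, where KRT5 is bright, it averaged 2219 ± 134 with AZD3965 and 2029 ± 73 with DMSO (SD, n = 3 each), a difference of 0.13 ± 0.31.

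None of the remaining differences with AZD3965 was called. KRT19 in SUM149PT averaged 4312 ± 95 with AZD3965 and 4278 ± 138 with DMSO, a difference of 0.01 with a 95% interval of -0.20 to 0.22. KRT8 in SUM149PT averaged 7693 ± 361 with AZD3965 and 6778 ± 291 with DMSO, a difference of 0.18 with an interval of -0.17 to 0.54, and its arrays did not overlap. KRT15 in SUM149PT averaged 114 ± 14 with AZD3965 and 115 ± 11 with DMSO, a difference of -0.02 with an interval of -0.52 to 0.49. In SUM159PT KRT15 read 116.0, 64.5 and 148.7 with AZD3965, against 75.1, 98.9 and 49.6 with DMSO, and the groups overlapped (0.45 ± 0.24, adjusted p = 0.843). In HS578T its difference was -0.36 ± 0.24 (adjusted p = 0.867). KRT7 differed by -0.01 in HS578T, 0.18 in SUM149PT and 0.15 in SUM159PT on its brightest probe set.

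**Figure D2:**
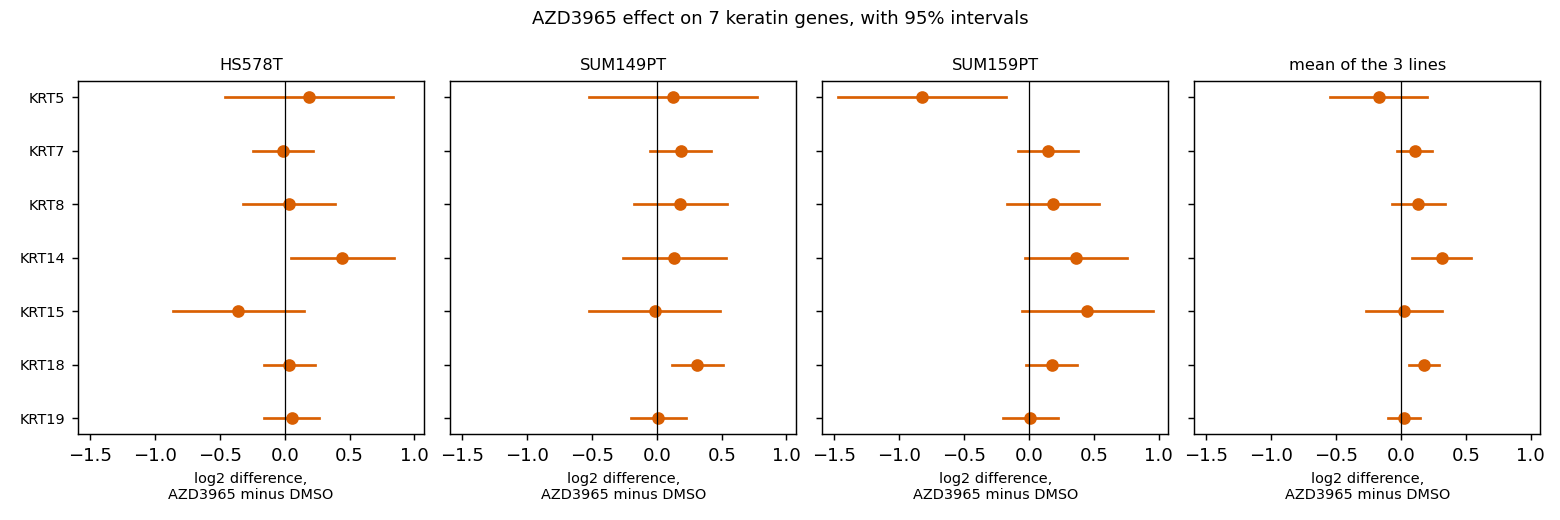
Difference in log2(signal + 16) between AZD3965 and DMSO (x axis) for the 7 keratin genes (y axis) in each line and averaged over the 3 lines. Points are limma estimates and lines their 95% intervals. The interval excludes 0 for KRT14 in HS578T, KRT18 in SUM149PT, KRT5 in SUM159PT, and KRT14 and KRT18 in the average, and none of these passed the correction over all probe sets.

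The shRNA effect and the AZD3965 effect in SUM149PT were compared directly, since they do not share control arrays. KRT19 was the 1 keratin of 7 called, with an shRNA effect larger by 1.07 ± 0.15 (adjusted p = 9.83e-05), against 5.13% of all probe sets. With the mean of both KRT19 probe sets, the difference was 0.54 and was not called (adjusted p = 0.149). The KRT15 effects differed by 1.16 ± 0.34 and missed the threshold (adjusted p = 0.0526), and the KRT8 effects by 0.46 ± 0.24 (adjusted p = 0.306). The 2 interventions differ in agent, duration and vector, which cannot be told apart here. SUM149PT levels also differed between the experiments. KRT14 in SUM149PT lay at 85.2 to 135.1 on the 6 shRNA arrays, against 218.0 to 316.7 on the 6 inhibitor arrays, with no overlap. KRT19 averaged 6097 ± 820 in scramble cells and 4278 ± 138 in DMSO cells (SD, n = 3 each). Infection with puromycin selection and experiment cannot be told apart in these values, and they were not tested.

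**Figure D3:**
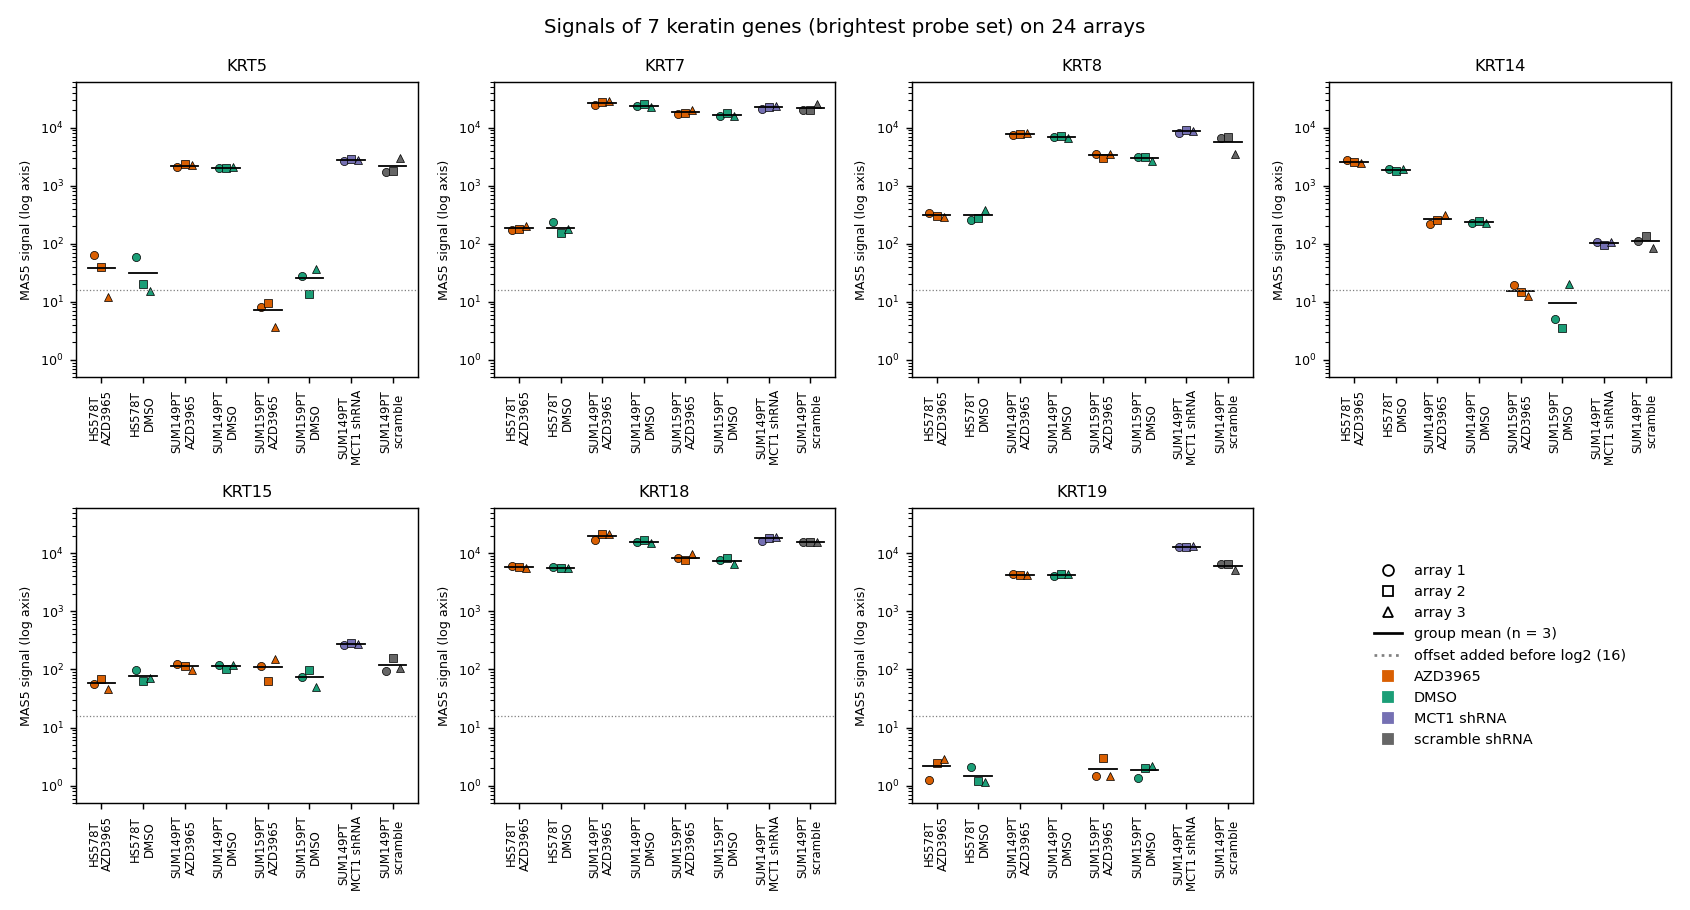
MAS5 signal (y axis, log axis) of the 7 keratin genes, brightest probe set of each, on all 24 arrays in 8 groups (x axis). Symbols are arrays, bars are group means (n = 3) and the dotted line is the offset of 16. KRT19 lay at 4118 or above in every SUM149PT group and at or below 2.96 in every HS578T and SUM159PT group, and KRT14 was highest in HS578T.

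Under DMSO, SUM149PT carried the basal KRT5 together with the luminal KRT19, KRT8, KRT18 and KRT7. SUM159PT kept KRT7, KRT8 and KRT18 but had KRT5, KRT14 and KRT19 at or below 36.4 units on every array. HS578T had the highest KRT14 with KRT5, KRT19, KRT7 and KRT8 low. It kept KRT18 as well, at a mean of 5629 against 7470 in SUM159PT. Of 7 keratin genes, 6 were called between HS578T and SUM149PT (KRT14 higher and 5 lower in HS578T), 4 between HS578T and SUM159PT (KRT14 higher and KRT7, KRT8 and KRT18 lower in HS578T), and 6 between SUM149PT and SUM159PT (all higher in SUM149PT). Over all probe sets the rates were 55.4%, 48.2% and 50.4%, so a call between lines was common. The comparisons share DMSO arrays.

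KRT19 on its bright probe set was high in SUM149PT alone. Under DMSO it read 2.08, 1.21 and 1.16 in HS578T, 4118, 4359 and 4357 in SUM149PT, and 1.35, 1.99 and 2.14 in SUM159PT. The HS578T and SUM159PT arrays overlapped and all were under 3 units, far from SUM149PT. The difference was -7.94 ± 0.10 for HS578T against SUM149PT (adjusted p = 3.29e-24) and 7.91 ± 0.10 for SUM149PT against SUM159PT (adjusted p = 5.34e-24). These are differences on the log2(signal + 16) scale, which understates the ratio for a dim gene, and no detection calls were used here. With other offsets, scalings and probe set summaries the difference between HS578T and SUM149PT ran from -10.77 with an offset of 1 to -3.92 with the mean of both probe sets. The dim KRT19 probe set showed no such gap under DMSO. It averaged 12.9 ± 7.2 in HS578T, 10.5 ± 4.1 in SUM149PT and 11.2 ± 9.9 in SUM159PT (SD, n = 3 each), with overlapping arrays.

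KRT5 followed the same split. It read 59.3, 20.4 and 15.2 in HS578T under DMSO, 1973, 2002 and 2112 in SUM149PT, and 27.7, 13.5 and 36.4 in SUM159PT. SUM149PT stood apart and the other lines overlapped. The log2 difference was -5.54 ± 0.31 for HS578T against SUM149PT (adjusted p = 4.01e-13), and SUM149PT exceeded SUM159PT by 5.65 ± 0.31 (adjusted p = 3.91e-13).

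KRT14, the usual partner of KRT5, ran in another order. It averaged 1881 ± 65 in HS578T, 234 ± 9 in SUM149PT and 9.49 ± 9.08 in SUM159PT under DMSO (SD, n = 3 each). The 3 lines did not overlap. HS578T exceeded SUM149PT by 2.92 ± 0.19 (adjusted p = 5.05e-12) and SUM159PT by 6.27 ± 0.19 (adjusted p = 9.85e-18), and SUM149PT exceeded SUM159PT by 3.35 ± 0.19 (adjusted p = 5.95e-13). HS578T thus had a high KRT14 signal with KRT5 signals of 59.3 or less under DMSO.

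KRT7 averaged 188 ± 42 in HS578T, 23731 ± 1771 in SUM149PT and 16571 ± 859 in SUM159PT on its brightest probe set. The log2 difference was -6.88 ± 0.11 for HS578T against SUM149PT (adjusted p = 1.14e-22) and -6.36 ± 0.11 for HS578T against SUM159PT (adjusted p = 1.13e-21). SUM149PT exceeded SUM159PT by 0.52 ± 0.11 (adjusted p = 0.000499). The other KRT7 probe sets put HS578T lowest as well. Their differences from SUM149PT were -1.17, -3.32 and -1.58, all called. Those from SUM159PT were -0.73, -3.04 and -0.77, of which the last was not called (adjusted p = 0.0521). For SUM149PT against SUM159PT these probe sets gave 0.43, 0.28 and 0.80, and only the last was called (adjusted p = 0.133, 0.324 and 0.0416).

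KRT8 averaged 306 ± 70 in HS578T, 6778 ± 291 in SUM149PT and 2949 ± 283 in SUM159PT. The lines did not overlap, and the differences were -4.42 ± 0.17 for HS578T against SUM149PT, -3.22 ± 0.17 for HS578T against SUM159PT and 1.20 ± 0.17 for SUM149PT against SUM159PT, all called. KRT18, its partner, averaged 5629 ± 93 in HS578T, 15896 ± 1079 in SUM149PT and 7470 ± 790 in SUM159PT, with differences of -1.49 ± 0.10, -0.40 ± 0.10 and 1.09 ± 0.10 in the same order, all called. KRT15 averaged 78.4 ± 17.9 in HS578T, 115 ± 11 in SUM149PT and 74.5 ± 24.6 in SUM159PT, and none of its differences was called. The nearest was 0.56 ± 0.24 for SUM149PT against SUM159PT (adjusted p = 0.0585).

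**Figure D4:**
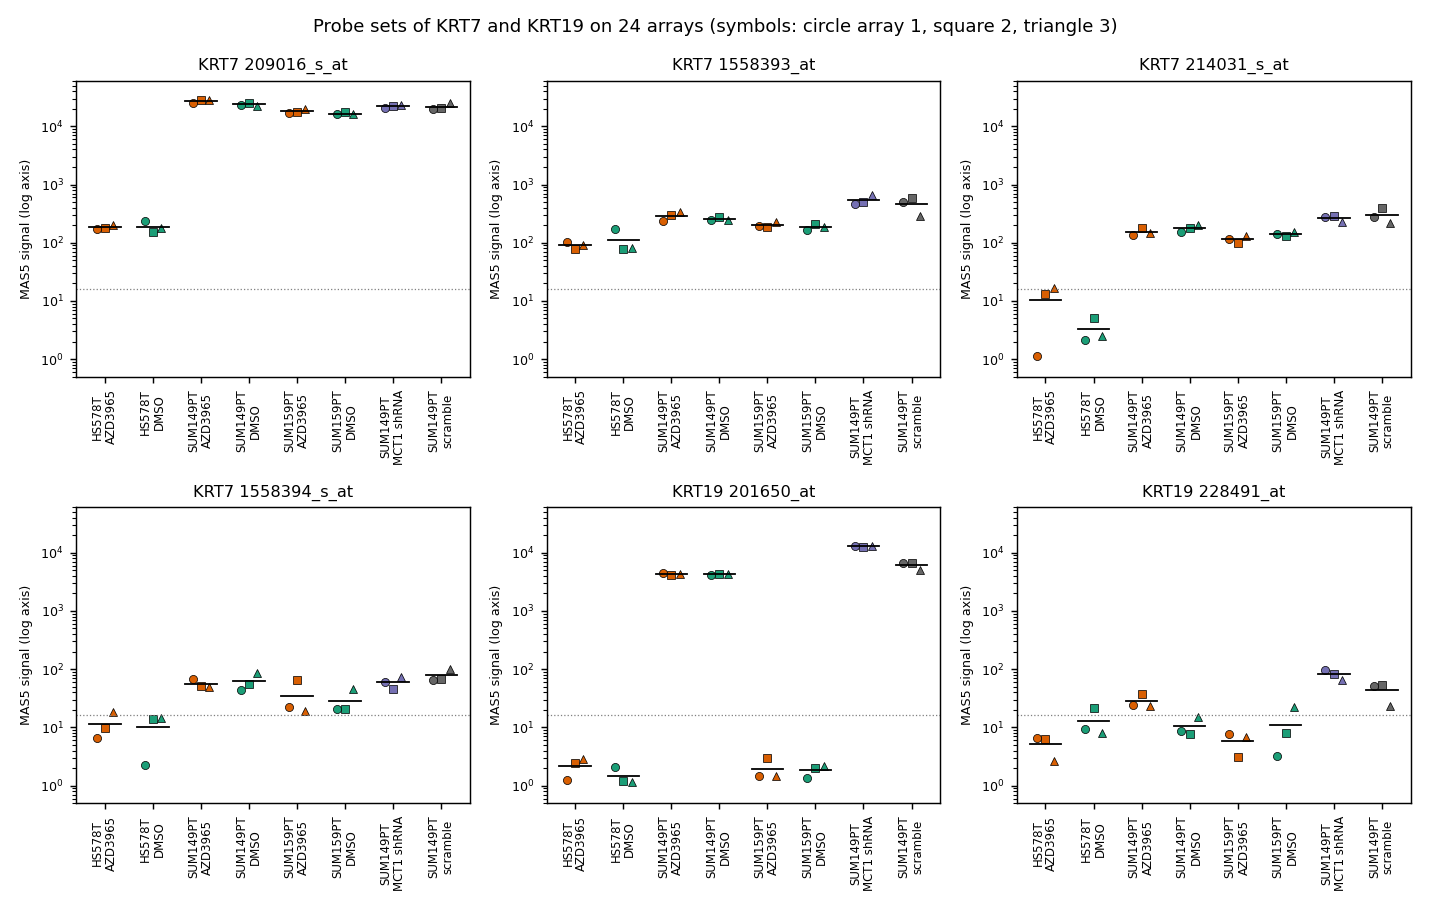
MAS5 signal (y axis, log axis) of the 4 KRT7 and 2 KRT19 probe sets on all 24 arrays in 8 groups (x axis). Bars are group means (n = 3) and the dotted line is the offset of 16. HS578T has the lowest KRT7 means on each KRT7 probe set, and both KRT19 probe sets are highest with MCT1 shRNA.

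Ordering the 8 groups by mean level kept each line together for KRT5, KRT7, KRT8, KRT14 and KRT18. For KRT19 the order was MCT1 shRNA, scramble, then the SUM149PT inhibitor groups. Neighbours did not overlap at the first 2 steps, while AZD3965 and DMSO overlapped, and the HS578T and SUM159PT groups followed in mixed order with overlapping arrays. For KRT5 the order within SUM149PT was MCT1 shRNA, AZD3965, scramble and DMSO, and of these neighbours only MCT1 shRNA and AZD3965 did not overlap. For KRT8 it was MCT1 shRNA, AZD3965, DMSO and scramble, and only AZD3965 and DMSO did not overlap, before SUM159PT and then HS578T, each without overlap. For KRT18 the 4 SUM149PT groups overlapped from neighbour to neighbour, and SUM159PT and then HS578T followed without overlap. For KRT7 neighbours overlapped throughout the SUM149PT and SUM159PT groups, and HS578T was apart. For KRT14 the HS578T groups came first, AZD3965 above DMSO without overlap, then the SUM149PT inhibitor groups, the SUM149PT shRNA groups and SUM159PT. For KRT15, MCT1 shRNA was first and the other 7 groups formed a run in which every neighbour overlapped.

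The line labels were set against epithelial and mesenchymal markers chosen after their values had been seen. CDH1, the epithelial cadherin, averaged 4.26 ± 1.31 in HS578T, 8772 ± 596 in SUM149PT and 3.53 ± 0.54 in SUM159PT under DMSO. EPCAM, an epithelial adhesion molecule, averaged 12.5 ± 3.9, 14967 ± 551 and 54.6 ± 35.9 in the same order of lines. VIM, the intermediate filament of mesenchymal cells, averaged 23624 ± 2945 in HS578T, 9516 ± 537 in SUM149PT and 23441 ± 2174 in SUM159PT. SUM159PT therefore had KRT7, KRT8 and KRT18 signal with low CDH1 and EPCAM, and HS578T had KRT18 signal (mean 5629) with both low. Not every luminal gene followed CDH1 and EPCAM. XBP1 averaged 3083 ± 58, 1800 ± 182 and 2797 ± 220 in the same order of lines, and GATA3 938 ± 87, 1226 ± 138 and 378 ± 40. Of 16 luminal genes tested, 11 were called lower and 1 higher in HS578T than in SUM149PT. Summed signal of 6 leukocyte markers stayed at or below 684 units on every array, and of 6 endothelial markers at or below 509. Single genes weighed heavily in these sums. Under DMSO the leukocyte marker CD14 averaged 34.2 ± 7.8, 389 ± 54 and 22.2 ± 1.6 in the same order of lines. The endothelial marker PECAM1 averaged 338 ± 81, 117 ± 14 and 152 ± 36.

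The lists were counted over the same comparisons. Between HS578T and SUM149PT, where 55.4% of all probe sets were called, 16 of 17 mesenchymal genes were higher and none lower in HS578T (median 3.77). In that comparison 7 of 8 basal genes were lower and 1 higher (median -5.27), 11 of 16 luminal genes lower and 1 higher (median -1.82), and 13 of 16 junction genes lower and 2 higher (median -2.43). Between HS578T and SUM159PT, where 48.2% were called, 12 of 17 mesenchymal genes were higher and none lower (median 1.09), and 4 of 8 basal genes were lower and none higher (median -0.32). Luminal genes had 1 of 16 lower and 3 higher (median 0.06), and junction genes 7 of 16 lower and 4 higher (median -0.18). Between SUM149PT and SUM159PT, where 50.4% were called, 7 of 8 basal genes were higher and 1 lower (median 2.999), 12 of 16 luminal genes higher and 1 lower (median 2.54), and 11 of 16 junction genes higher and 1 lower (median 1.77). Of 17 mesenchymal genes 9 were lower and 3 higher (median -0.93). The 3 higher in SUM149PT, named after their values were seen, were FN1 (20367 against 16757), COL6A1 (897 against 533) and TAGLN (392 against 237), opposite in direction to VIM. The median over all probe sets was 0.04, -0.02 and -0.07 in these 3 comparisons. DSP averaged 1972 ± 170 in HS578T, 8135 ± 1015 in SUM149PT and 447 ± 19 in SUM159PT. Of keratins outside the set, named after their values were seen, KRT16 averaged 49.2 ± 30.4, 528 ± 52 and 8.60 ± 4.73 in that order of lines, KRT80 averaged 29.3 ± 20.5, 1467 ± 150 and 958 ± 128, and KRT75 averaged 50.7 ± 12.3, 55.9 ± 20.7 and 665 ± 52.

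Across the 24 arrays, KRT5 and KRT19 varied together (Pearson r = 0.984), as did KRT7 and KRT8 (r = 0.968) and KRT18 and KRT19 (r = 0.947), while KRT14 ran opposite to KRT7 (r = -0.819). These values describe 24 arrays that share 3 lines, so they mostly restate the differences between lines. Among 14139 genes, those most like KRT19 outside the set were ROR2, KCTD15 and RAB25, each at r = 0.996. Those most like KRT5 were GALNT13 (0.991), TMEM30B (0.989) and PAX8-AS1 (0.989). Those most like KRT14 were MGLL (0.987), CKAP4 (0.985) and ARHGEF18 (0.985), and those most like KRT8 were PHKA1 (0.991), PBDC1 (0.990) and GOT2 (0.989). The number of genes above r = 0.95 was 521 for KRT19, 412 for KRT5, 230 for KRT8 and 68 for KRT14. After group means were subtracted, r was 0.884 for PBDC1 with KRT8 and between -0.28 and 0.62 for the other 11 genes. These deviations include scramble array 3, on which KRT8 read 3562, against 6611 and 7004 on the other scramble arrays. The value without that array was not computed.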

How the data were processed

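RNA of 3 cell lines was measured on 24 arrays. The deposited values are probe set intensity on a linear scale, made with MAS5 per the submitters' processing notes, in a version not given in the sources used here. The 2% trimmed mean is equal on all arrays, so scaling by the authors preceded deposition, and no further normalization was applied.

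Of 54675 probe sets, 62 controls were left out. Symbols came from the platform annotation. Probe sets with a mean log2(signal + 16) at or above the 40th percentile (5.58) were tested, 32768 in all. A model with 8 group means was fitted to 24 arrays with limma 3.58.1 in R 4.3.3 (eBayes with trend, 16 residual degrees of freedom). Tests were two-sided, with p-values adjusted by Benjamini-Hochberg over all probe sets tested, and 10 comparisons were made. Fold changes are on the log2(signal + 16) scale, which understates those of dim genes. The number of arrays limits the precision.

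Members and gene lists were chosen with earlier results of these data known. Genes named beside the members by rule are called list genes of smallest p for the shRNA effect, up to 4 a list. The rules also took other keratins called under treatment (there were none), and the 3 genes most correlated with each of KRT5, KRT14, KRT8 and KRT19. Further named genes, among them DSP, KRT9, CDH1, EPCAM, VIM, CD14 and PECAM1, were not chosen by these rules. The pipeline was tested on simulated data. Alternatives tried were median centring, quantile normalization, filters and offsets of other sizes, summaries per gene, a replicate block, fits on the groups compared alone, and leaving out each array.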

Additional observations from a re-analysis of the deposited data

Results flagged for a closer look

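The second KRT19 probe set, 228491_at, gave AZD3965 effects of opposite direction in 2 lines, with every array of each line on its own side. It read 24.5, 37.7 and 23.4 with AZD3965 in SUM149PT, against 8.65, 7.61 and 15.1 with DMSO. It read 6.56, 6.25 and 2.67 with AZD3965 in HS578T, against 9.39, 21.1 and 8.14 with DMSO. The effect in SUM149PT exceeded that in HS578T by 1.17 on the log2(signal + 16) scale. This difference was not tested, because the probe set lies below the signal limit for testing and its values are close to the offset. The bright KRT19 probe set, 201650_at, differed by 0.01 in SUM149PT and 0.05 in HS578T.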

How the results depend on the processing

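Of 700 results for single keratin genes under alternatives other than leaving out an array, 690 kept their side of the threshold. Of the others, 3 lost and 7 gained a call, and no called difference reversed. In 15 of the 690 an uncalled difference changed sign. With single arrays left out, 624 of 630 were kept, 3 lost and 3 gained a call, and 28 uncalled differences changed sign. In the shRNA comparison KRT19 and KRT15 were called under all 16 alternatives and KRT8 under 11. KRT8 lost its call after median centring (adjusted p = 0.0863), in the fit on the 2 groups alone (0.213), and without MCT1 shRNA replicate 2 (0.0665), MCT1 shRNA replicate 3 (0.0603) or scramble replicate 3 (0.108). For the shRNA effect minus the AZD3965 effect, KRT19 lost its call with the mean of probe sets per gene (0.54, adjusted p = 0.149), where its dim probe set enters. There KRT15 gained a call with the offset of 64, the 60th percentile filter, the brightest and the mean probe set per gene, the groups alone, and without scramble replicate 2 (adjusted p from 0.0210 to 0.0420). KRT15 between SUM149PT and SUM159PT gained a call with the 60th percentile filter (0.0470), the mean per gene (0.0403) and without SUM159PT DMSO replicate 2 (0.0220).

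Counts of probe sets called moved more. The offset of 1 gave 15 for AZD3965 in SUM159PT, 12 for the average and 28 for the difference between lines. The offset of 64 gave 2 for AZD3965 in SUM149PT and 2 keratin genes for the shRNA effect minus the AZD3965 effect. Quantile normalization gave 10 for the difference between lines. Median centring gave 2 for AZD3965 in SUM149PT, 0 for the average and 576 for the shRNA effect minus the AZD3965 effect. No filter gave 0 for the average and 8 for the difference between lines. The 60th percentile filter gave 2 for AZD3965 in SUM149PT and 2 keratin genes for the shRNA effect minus the AZD3965 effect. The brightest probe set per gene, with fewer features tested, gave 2101 for the shRNA comparison, 9079, 8207 and 8397 for the line comparisons and 2 keratin genes for the shRNA effect minus the AZD3965 effect. The mean per gene gave 1676 for the shRNA comparison, 26 for AZD3965 in HS578T, 2 in SUM149PT, 3 for the average, 10 for the difference between lines, 857 for the shRNA effect minus the AZD3965 effect, and 8142, 7307 and 7625 for the lines. Same-numbered arrays were not paired by the labels. Correlations of their deviations were 0.022 to 0.032 for AZD3965 with DMSO in SUM149PT, and 0.135, 0.066 and 0.175 for SUM149PT with SUM159PT under DMSO. In both cases each array of the first-named group correlated best with the same-numbered array of the other. In no comparison were the correlations over 0.1 for all 3 numbers. The replicate block gave 12 for AZD3965 in HS578T, 1 in SUM149PT, 0 for the average, 0 for the difference between lines and 1072 for the shRNA effect minus the AZD3965 effect, and changed no call of a keratin gene. Fits on the groups compared alone gave 748 for the shRNA comparison, 29 for AZD3965 in HS578T, 0 in SUM149PT, 13 for the average, 667 for the shRNA effect minus the AZD3965 effect and 2 keratin genes for it. Leaving out single arrays gave 2283 to 4353 for the shRNA comparison (2 to 3 keratin genes), 20 to 29 for AZD3965 in HS578T, 1 to 905 in SUM149PT (0 to 1 keratin gene), 0 to 6 in SUM159PT, 0 to 18 for the average, 7 to 47 for the difference between lines, 1026 to 2723 for the shRNA effect minus the AZD3965 effect (1 to 2 keratin genes), 16855 to 17191 for HS578T against SUM149PT, 14451 to 14722 for HS578T against SUM159PT and 15105 to 15542 for SUM149PT against SUM159PT (6 to 7 keratin genes). The cause of these changes was not tested.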
